A study of Mus musculus with 36 samples.

Results

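Netrin-G2 (Ntng2), a membrane-anchored relative of the netrins, was the single axon guidance gene whose change in the Braf-cko hippocampus passed the test across all probes. Its brightest probe read 148% of the Braf-flox level in Braf-cko mice, and the groups did not overlap. The genes described are the 73 whose array symbol begins with Sema, Plxn, Efna, Efnb, Epha, Ephb, Slit, Robo, Ntn or Unc5, or is Nrp1, Nrp2 or Dcc, of 17711 named genes on the array. They are read by 171 of 46632 probes, and each gene stands by its probe with the highest mean log2 value over all 36 arrays. By function, 35 of the 73 are guidance ligands and 31 are receptors or co-receptors. The remaining 7 share only the start of a name: Slitrk1, Slitrk2, Slitrk3, Slitrk4 and Slitrk6, which are transmembrane proteins of the synapse, and Unc50 and Unc5cl, which are not netrin receptors.

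Growing axons and dendrites are steered by a few families of surface and secreted proteins. Semaphorins act through plexins, secreted semaphorins also through neuropilins, ephrins through Eph receptor kinases, Slits through Robo receptors, and netrins through Dcc and the Unc5 receptors. Netrin-Gs are held in the membrane by a lipid anchor and do not bind Dcc or Unc5, but pair with the NGL proteins Lrrc4c and Lrrc4 on the facing cell. In the adult hippocampus many of these proteins remain at synapses, and Eph receptors and semaphorins there are known for effects on dendritic spines, while B-Raf, a kinase that activates MEK and ERK, lies downstream of many surface receptors.

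Gene expression was measured in whole male hippocampi on Illumina MouseWG-6 arrays in 2 experiments. In the first, 5 Braf-cko mice, homozygous for a floxed Braf allele and heterozygous for a CamkIIa-Cre transgene, were compared at 4 months of age with 6 Braf-flox littermates that were homozygous for the same floxed allele and carried no Cre. In the second, 6 CamkII-Cre mice, heterozygous for that transgene with an intact Braf gene, were compared at 6 months with 6 CamkII-wt littermates without it, as a control for the transgene. The CamkIIa promoter drives Cre in the principal neurons of the forebrain after birth, so Cre is not expected in glia, vessels or most interneurons. The Braf line carried a mixed background that was mostly C57BL/6J, while the CamkIIa-Cre line had been backcrossed to C57BL/6J over many generations. Background, age and Braf therefore cannot be told apart in the difference between the changes of the 2 experiments. All values are log2 of the deposited intensity, the arrays of an animal were averaged, and a change is the difference of group means on this scale. Because the hippocampus was taken whole, fewer cells of a type and less RNA per cell cannot be told apart.

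Array medians lay between 51.8 and 53.3 in the Braf experiment and between 64.98 and 70.2 in the Cre experiment, so no level is compared across the 2 experiments. The single Braf probe was among the dimmer 50% of probes in the Braf comparison, with 5.37 to 5.66 in Braf-cko mice and 5.45 to 5.76 in Braf-flox mice, and its place relative to the deleted part of the gene was not determined, so it does not check the labels. Of the measured marker genes of hippocampal neurons, 6 of 8 for granule cells, 5 of 5 for CA1 pyramidal cells and 7 of 7 for CA3 pyramidal cells were in the brighter 50%. Summed levels of granule cell markers overlapped, with 12.08 to 12.48 in Braf-cko mice and 11.87 to 12.66 in Braf-flox mice. So did those of CA3 markers, with 12.47 to 12.93 in Braf-cko mice and 12.54 to 12.94 in Braf-flox mice. Astrocyte, oligodendrocyte, oligodendrocyte precursor, microglia and blood sums overlapped as well. The summed level of the CA1 markers was 12.42 to 12.85 in Braf-cko mice and 12.91 to 13.17 in Braf-flox mice, without an overlap. That of interneuron markers was 13.80 to 13.96 in Braf-cko mice and 13.98 to 14.28 in Braf-flox mice, also without one, although 3 of the 10 tested interneuron genes were above 0, while all 5 CA1 genes were below 0. No single gene of either list passed the adjusted threshold. The part of these marker levels in the changes of guidance genes was not tested.

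Choroid plexus markers read far higher in 5 of the 23 mice. The summed level of its markers was 9.41 to 11.12 in the 5 Braf-cko mice, and 14.12 in Braf-flox mouse 6 against 9.15 to 10.79 in the other 5 Braf-flox mice, and all 6 tested choroid plexus genes had changes below 0 (median −0.37) without one passing. The same sum was 14.52 to 14.86 in CamkII-Cre mice 2 and 5 against 10.46 to 10.84 in the other CamkII-Cre mice, and 14.50 to 15.19 in CamkII-wt mice 3 and 4 against 9.59 to 10.94 in the other CamkII-wt mice. With these 5 mice left out, an alternative chosen after seeing the data, the count of guidance genes past the adjusted threshold was again 1 (Ntng2, 0.58, limma adjusted p = 0.0218) in the Braf comparison and 0 in the Cre comparison and for the difference.

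Of the 73 genes, 58 were bright enough to be tested between Braf-cko and Braf-flox mice, that is, among the brighter 50% of probes over these animals. After Benjamini-Hochberg adjustment over the 23316 probes tested by limma, 1 of the 58 was higher, none was lower and 57 did not pass, where 0.532% of all probes passed (0.159% higher and 0.373% lower). At an unadjusted p under 0.05 stood 16 of the 58 (27.6%), 6 higher and 10 lower, against 11.1% of the brightest probes of all named genes (4.87% higher and 6.26% lower). Separate groups were seen for 4 of the 58, Ntng2 and Unc5a on the higher and Epha6 and Robo4 on the lower side, against 1.98% of those probes. The median change of the 58 was −0.01, beside 0.00 over all probes tested, with 28 above and 30 below 0, and their median size of change was 0.11, beside 0.07. For the 57 genes that did not pass, the values and unadjusted p are given as measured.

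**Figure D1:**
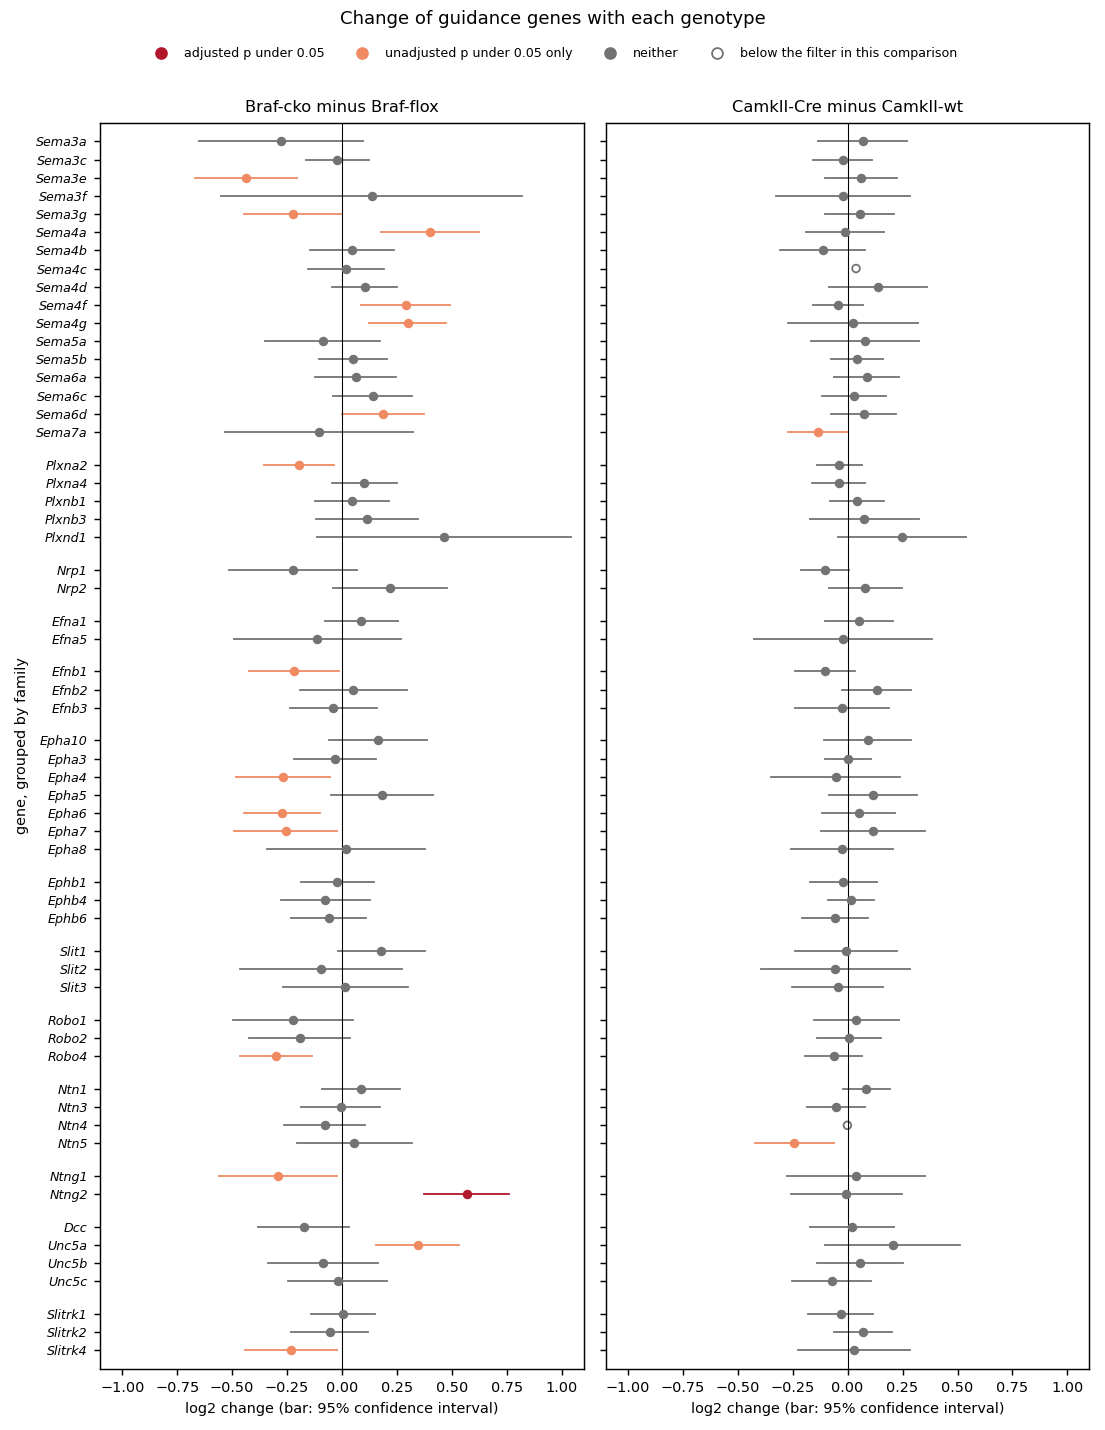
Log2 change (x axis) of the 58 guidance genes tested in the Braf comparison (y axis, by family), for Braf-cko minus Braf-flox (left) and CamkII-Cre minus CamkII-wt (right). Points are changes and bars are 95% confidence intervals. Ntng2, at 0.57, is the single gene past the adjusted threshold on the left, and the changes on the right lie between −0.24 and 0.25.

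The brightest Ntng2 probe (ILMN_1239814) read 9.13, 9.07, 9.59, 9.18 and 9.26 in the 5 Braf-cko mice. It read 8.73, 8.68, 8.79, 8.52, 8.62 and 8.72 in the 6 Braf-flox mice. Every Braf-cko value lay above every Braf-flox value, as was the case for 0.679% of the brightest probes of named genes. The mean was 9.24 ± 0.20 in Braf-cko mice (SD, n = 5) and 8.68 ± 0.10 in Braf-flox mice (SD, n = 6), a change of 0.57 (SE 0.09, limma adjusted p = 0.00926), with a 95% confidence interval of 0.37 to 0.76.

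In the Cre experiment the same probe ranged from 8.66 to 9.09 in CamkII-Cre mice, with a median of 8.90, and from 8.54 to 9.26 in CamkII-wt mice, also with a median of 8.90. The groups overlapped, with a change of −0.01 (95% confidence interval −0.26 to 0.25), and the sign of so small a value turned under quantile normalization. In one model of all 23 animals the Braf change exceeded the Cre change by 0.57 (SE 0.16, unadjusted p = 0.00118). With adjustment over all probes this difference did not pass (limma adjusted p = 0.216).

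Within the Cre experiment the values differed by animal number, a split that was chosen with earlier results of these data known. CamkII-wt mice 1, 2 and 3 read 9.16, 9.26 and 9.07, and CamkII-wt mice 4, 5 and 6 read 8.71, 8.54 and 8.72. CamkII-Cre mice 1, 2 and 3 read 8.66, 8.85 and 8.94, below all 3 of the CamkII-wt mice with those numbers, and mice 4, 5 and 6 read 9.03, 9.09 and 8.86, above all 3 of theirs. The difference between CamkII-Cre and CamkII-wt means was therefore −0.35 over animals 1 to 3 and 0.34 over animals 4 to 6. In the Braf experiment it was 0.53 over animals 1 to 3 and 0.60 over the animals numbered from 4. The labels do not say what the numbers stand for beyond the animal. For the 21 guidance genes with full values, the sign of the change was set against that of the animals numbered from 4. It differed from that over animals 1 to 3 for 6 genes in the Cre experiment and for 2 in the Braf experiment (Nrp2 and Ephb4). Most of the 21 were chosen by their p in the Braf comparison, which favours matching signs there. The 2 counts therefore cannot be set against each other.

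The other Ntng2 probes did not repeat the separation. Probe ILMN_2701486, assigned to the transcript NM_133500, read 7.13, 7.69, 7.36, 6.39 and 6.03 in Braf-cko mice, against 6.23, 7.60, 6.90, 7.14, 6.10 and 5.61 in Braf-flox mice. Its groups overlapped, with a change of 0.32 (SE 0.35, limma adjusted p = 0.811) and a wider range within each group than at the brightest probe. Probe ILMN_2701864, assigned to NM_133501, was below the filter, with 4.81 to 5.19 in Braf-cko mice and 5.07 to 5.65 in Braf-flox mice, a change of −0.23 that was not tested. The brightest probe is assigned to the sequence AK011411, and whether the 3 probes read the same Ntng2 transcripts was not determined. The study lists netrin-G2 as higher in Braf-cko mice under NM_133500, with a fold change equal to that of the brightest probe here. The assigned sequences therefore do not show which transcript changed. With the mean of the tested probes in place of the brightest, the change was 0.44 (limma adjusted p = 0.382), and it also missed the threshold on the brightest probe when each probe was tested on its own variance, without limma's sharing across probes (adjusted p = 0.0729).

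**Figure D2:**
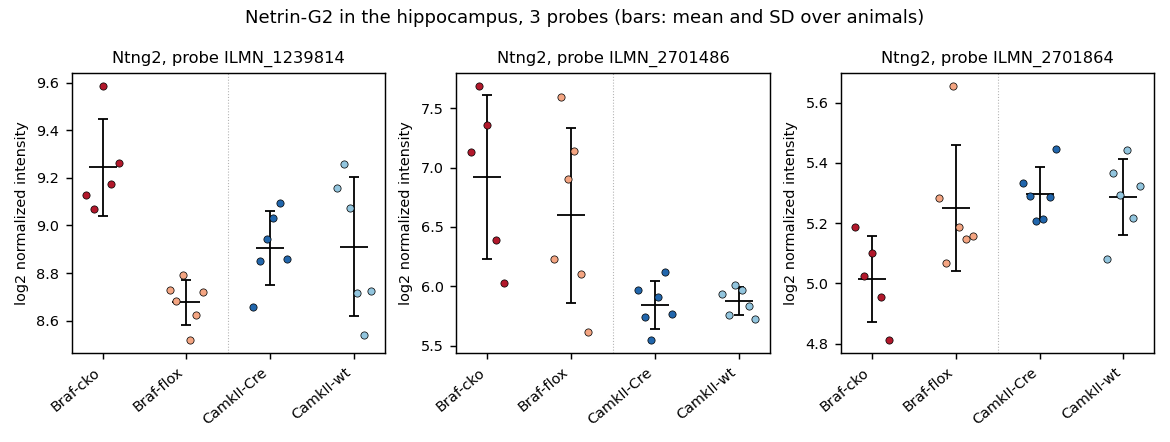
Log2 normalized intensity (y axis) of the 3 Ntng2 probes in each animal of the 4 groups (x axis), with bars for the mean and SD over animals. At the left probe all 5 Braf-cko mice lie above all 6 Braf-flox mice, while at the other probes the groups overlap. The dotted line parts the 2 experiments, whose levels are not comparable.

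Transcription factors of the CREB, ETS and EGR families act downstream of ERK, so the stretch before the start of the guidance genes was searched for their motifs on both strands. RefSeq promoters (build GRCm38.p6, from 250 bases before to 50 bases after each start) were available for 62 of the 73 genes, with 76 promoters, among 32851 in all. The full CRE TGACGTCA stood in 2.632% of these 76 and in 1.79% of all promoters, and its core TGACG, which is also part of the full CRE, in 14.474% of these and 20.812% of all. The ETS motif CCGGAAG stood in 3.947% of these and 8.858% of all, the EGR motif GCGGGGGCG in 6.579% of these and 2.907% of all, and a second EGR form, GCGTGGGCG, in 1.316% of these and 0.612% of all. Of the 15 genes at an unadjusted p under 0.05 that had a promoter, none held the full CRE or the ETS motif, Epha4 and Efnb1 held the core, Sema4g held the first EGR form, and Plxna2 held the second. The 250 bases before the start are shown for Ntng2 (chr2:29248100-29248349, minus strand), the gene that changed, and for Sema4g (chr19:44989094-44989343, plus strand), whose EGR match on the opposite strand is in capitals and begins 142 bases before the start. The Ntng2 window held none of the 5 motifs.
Ntng2: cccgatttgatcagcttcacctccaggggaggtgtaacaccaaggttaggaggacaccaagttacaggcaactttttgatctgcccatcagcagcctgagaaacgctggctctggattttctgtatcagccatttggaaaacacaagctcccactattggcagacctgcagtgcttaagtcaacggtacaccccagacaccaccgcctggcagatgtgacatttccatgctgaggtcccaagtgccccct
Sema4g: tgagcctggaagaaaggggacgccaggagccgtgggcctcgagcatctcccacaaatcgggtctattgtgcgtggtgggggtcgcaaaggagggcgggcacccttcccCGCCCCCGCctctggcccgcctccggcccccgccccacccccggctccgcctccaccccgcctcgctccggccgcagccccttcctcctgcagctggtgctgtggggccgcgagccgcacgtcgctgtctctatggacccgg

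Among the semaphorins, 17 of 19 genes were tested and none passed the adjusted threshold, with 4 higher and 2 lower at an unadjusted p under 0.05. All 6 class 4 semaphorins, which sit in the membrane and act mainly through B plexins, were above 0 (0.02 to 0.40), as were all 3 tested members of class 6, also membrane proteins (0.06 to 0.19). Of the secreted class 3, 4 of 5 were below 0 (−0.44 to 0.14). These signs were the same under quantile normalization, median centring and an added intensity of 50, and no test was made of a class. The tested probes of Sema6a, however, ran from −0.11 to 0.06. In the Cre comparison all 3 class 6 genes were also above 0 (0.03 to 0.09), as were 2 of 5 tested class 4 genes. For the difference of the changes, 4 of 6 class 4 genes, 2 of 3 class 6 genes and 3 of 6 class 3 genes were above 0.

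Sema4a, a semaphorin also known from immune cells and the retina, read 10.65, 10.44, 10.67, 10.54 and 10.87 in Braf-cko mice, against 9.99 to 10.49 with a median of 10.26 in Braf-flox mice. The groups overlapped by the second Braf-cko mouse only, with a change of 0.40 (SE 0.10, unadjusted p = 0.00179, limma adjusted p = 0.135). In the Cre experiment the change was −0.01, and the difference between the changes was 0.41 (unadjusted p = 0.00611, limma adjusted p = 0.437).

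Sema4g, a ligand of plexin B2 in the cerebellum, read 6.03, 6.15, 6.36, 6.02 and 6.12 in Braf-cko mice, against 5.66 to 6.04 with a median of 5.83 in Braf-flox mice. In 3 of the Braf-cko mice it lay above all Braf-flox mice, with a change of 0.30 (SE 0.08, limma adjusted p = 0.161) and one of 0.02 in the Cre experiment. The Sema4g levels are low, near those of the Braf probe, which was below the filter (5.45 to 5.76 in Braf-flox mice). Sema4f, whose cytoplasmic tail binds the postsynaptic scaffold PSD-95, read 8.53, 8.79, 8.82, 9.04 and 8.76 in Braf-cko mice, against 8.33 to 8.68 with a median of 8.48 in Braf-flox mice. Braf-cko mouse 1 alone fell within the Braf-flox range, and the change of 0.29 (SE 0.10, limma adjusted p = 0.258) stood beside −0.04 in the Cre experiment, a difference of 0.33 (unadjusted p = 0.00514, limma adjusted p = 0.414). The second tested Sema4f probe had a change of 0.09 in the Braf comparison.

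Sema6d, a plexin A ligand, was the remaining semaphorin with a positive value at an unadjusted p under 0.05. It read 7.85, 7.97, 8.28, 8.21 and 8.08 in Braf-cko mice, against 7.77 to 8.10 with a median of 7.87 in Braf-flox mice, so that the groups overlapped in 3 of the 5 (change 0.19, SE 0.09, limma adjusted p = 0.460). Its second tested probe had a change of 0.07, and the probes below the filter had 0.03 and −0.52.

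Sema3e, a secreted ligand that binds plexin D1 directly, read 6.57, 6.64, 6.58, 6.56 and 6.36 in Braf-cko mice, against 6.60 to 7.36 with a median of 6.98 in Braf-flox mice. A single Braf-cko mouse exceeded the lowest Braf-flox mouse, and the change was −0.44 (SE 0.11, unadjusted p = 0.00114, limma adjusted p = 0.111). In the Cre experiment it was 0.06, with a difference of −0.50 (limma adjusted p = 0.211), the smallest adjusted p of a guidance gene in that comparison. Without Braf-flox mouse 2, the lowest of its group, Sema3e passed in both, with a change of −0.51 (limma adjusted p = 0.0248) and a difference of −0.57 (limma adjusted p = 0.0481). Its 3 dimmer probes, all below the filter, had changes of 0.08, −0.10 and −0.15.

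Sema3g, a secreted semaphorin of endothelial cells, read 6.19, 5.98, 6.35, 6.26 and 5.87 in Braf-cko mice, against 6.19 to 6.69 with a median of 6.32 in Braf-flox mice. Of the 5, 2 lay below all Braf-flox mice, and the change was −0.22 (SE 0.10, limma adjusted p = 0.458). The Sema3g levels are also low, not far above those of the Braf probe, which was below the filter (5.45 to 5.76 in Braf-flox mice). The summed level of 14 endothelial and mural marker genes was 12.68 to 12.88 in Braf-cko mice and 12.92 to 13.05 in Braf-flox mice, without an overlap, although none of the 14 passed the adjusted threshold and 9 of 14 were below 0. The part of this marker level in the Sema3g value was not tested.

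Of the semaphorin receptors, 5 of 8 plexins and both neuropilins were tested, and none passed the adjusted threshold. Plxna2, a receptor of class 6 semaphorins in the mossy fibre system, read 9.32, 9.26, 9.32, 9.20 and 9.21 in Braf-cko mice, against 9.29 to 9.66 with a median of 9.46 in Braf-flox mice. The Braf-cko values spanned less than the Braf-flox values and overlapped their lower end in 2 mice (change −0.20, SE 0.07, limma adjusted p = 0.340, Cre experiment −0.04). Its second tested probe had a change of −0.03.

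The neuropilins had changes of opposite sign. Nrp1, the main co-receptor of Sema3a, was at −0.22 (95% confidence interval −0.51 to 0.07) and its 3 tested probes lay between −0.23 and −0.20. Nrp2, the main co-receptor of Sema3f, read 7.36, 7.42, 7.41, 7.26 and 6.88 in Braf-cko mice, against 6.63 to 7.28 with a median of 7.05 in Braf-flox mice (change 0.22, SE 0.12, limma adjusted p = 0.557). The groups overlapped for both neuropilins, and the Nrp2 change was 0.48 over animals 1 to 3 and −0.11 over those numbered from 4.

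Plxnd1, the Sema3e receptor, had the second largest positive value of a guidance gene at 0.46, but with an SE of 0.27 (limma adjusted p = 0.580). It read 9.26, 8.27, 9.27, 8.91 and 9.64 in Braf-cko mice, against 7.85 to 9.54 in Braf-flox mice. The spread within each group exceeded the difference of the means. Plxnd1 is named here because of this spread, after its values were seen.

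Of the ephrins, 5 of 7 genes were tested and none passed the adjusted threshold. Efnb1, an X-linked transmembrane ephrin, read 7.98, 7.96, 7.85, 7.69 and 7.98 in Braf-cko mice, against 7.88 to 8.44 with a median of 8.09 in Braf-flox mice. The groups overlapped (change −0.22, SE 0.10, limma adjusted p = 0.424), and the Cre experiment gave −0.10 for the same probe. Of the lipid-anchored A ephrins, Efna1 read 6.98 to 7.18 in Braf-cko mice, against 6.81 to 7.25 in Braf-flox mice (change 0.09, limma adjusted p = 0.753).

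Of the Eph A receptors, kinases that bind mainly the lipid-anchored ephrins, 7 of 9 were tested. Of these, 3 were lower at an unadjusted p under 0.05 and none passed the adjusted threshold. Epha6 was the one with separate groups, and it read 5.56, 5.93, 5.84, 5.92 and 5.91 in Braf-cko mice, against 5.97 to 6.20 with a median of 6.14 in Braf-flox mice. These levels are low, near those of the Braf probe, which was below the filter (5.45 to 5.76 in Braf-flox mice). All 5 Braf-cko values lay below all 6 Braf-flox values, as for 1.31% of the brightest probes of named genes, with a gap of less than 0.05 between the groups (change −0.27, SE 0.08, unadjusted p = 0.00436, limma adjusted p = 0.198). The Cre change was 0.05, and the difference −0.32 (unadjusted p = 0.00862, limma adjusted p = 0.469).

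Epha4, which is found on dendritic spines and meets ephrins of astrocytes there, read 7.75, 7.91, 7.92, 7.84 and 7.52 in Braf-cko mice, against 7.79 to 8.34 with a median of 8.06 in Braf-flox mice. Of the 5, 2 lay below every Braf-flox mouse (change −0.27, SE 0.10, limma adjusted p = 0.328). Epha7, a receptor known for repulsion of growing axons, read 8.34, 8.41, 8.53, 8.97 and 8.61 in Braf-cko mice, against 8.67 to 9.08 with a median of 8.79 in Braf-flox mice. Braf-cko mouse 4, the highest of its group, lay within the Braf-flox range (change −0.26, SE 0.11, limma adjusted p = 0.418). The Cre changes of these genes were −0.05 for Epha4 and 0.12 for Epha7, and the Epha7 difference was −0.37 (unadjusted p = 0.0316, limma adjusted p = 0.687).

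The 4 other Eph A receptors tested had changes between −0.03 (Epha3) and 0.18 (Epha5). Of the Eph B receptors, 3 of 4 were tested, with changes between −0.08 and −0.02. The smallest unadjusted p among them was 0.443, for Ephb4, the ephrin B2 receptor known from veins (7.38 to 7.84 in Braf-cko mice, against 7.55 to 8.02 in Braf-flox mice).

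**Figure D3:**
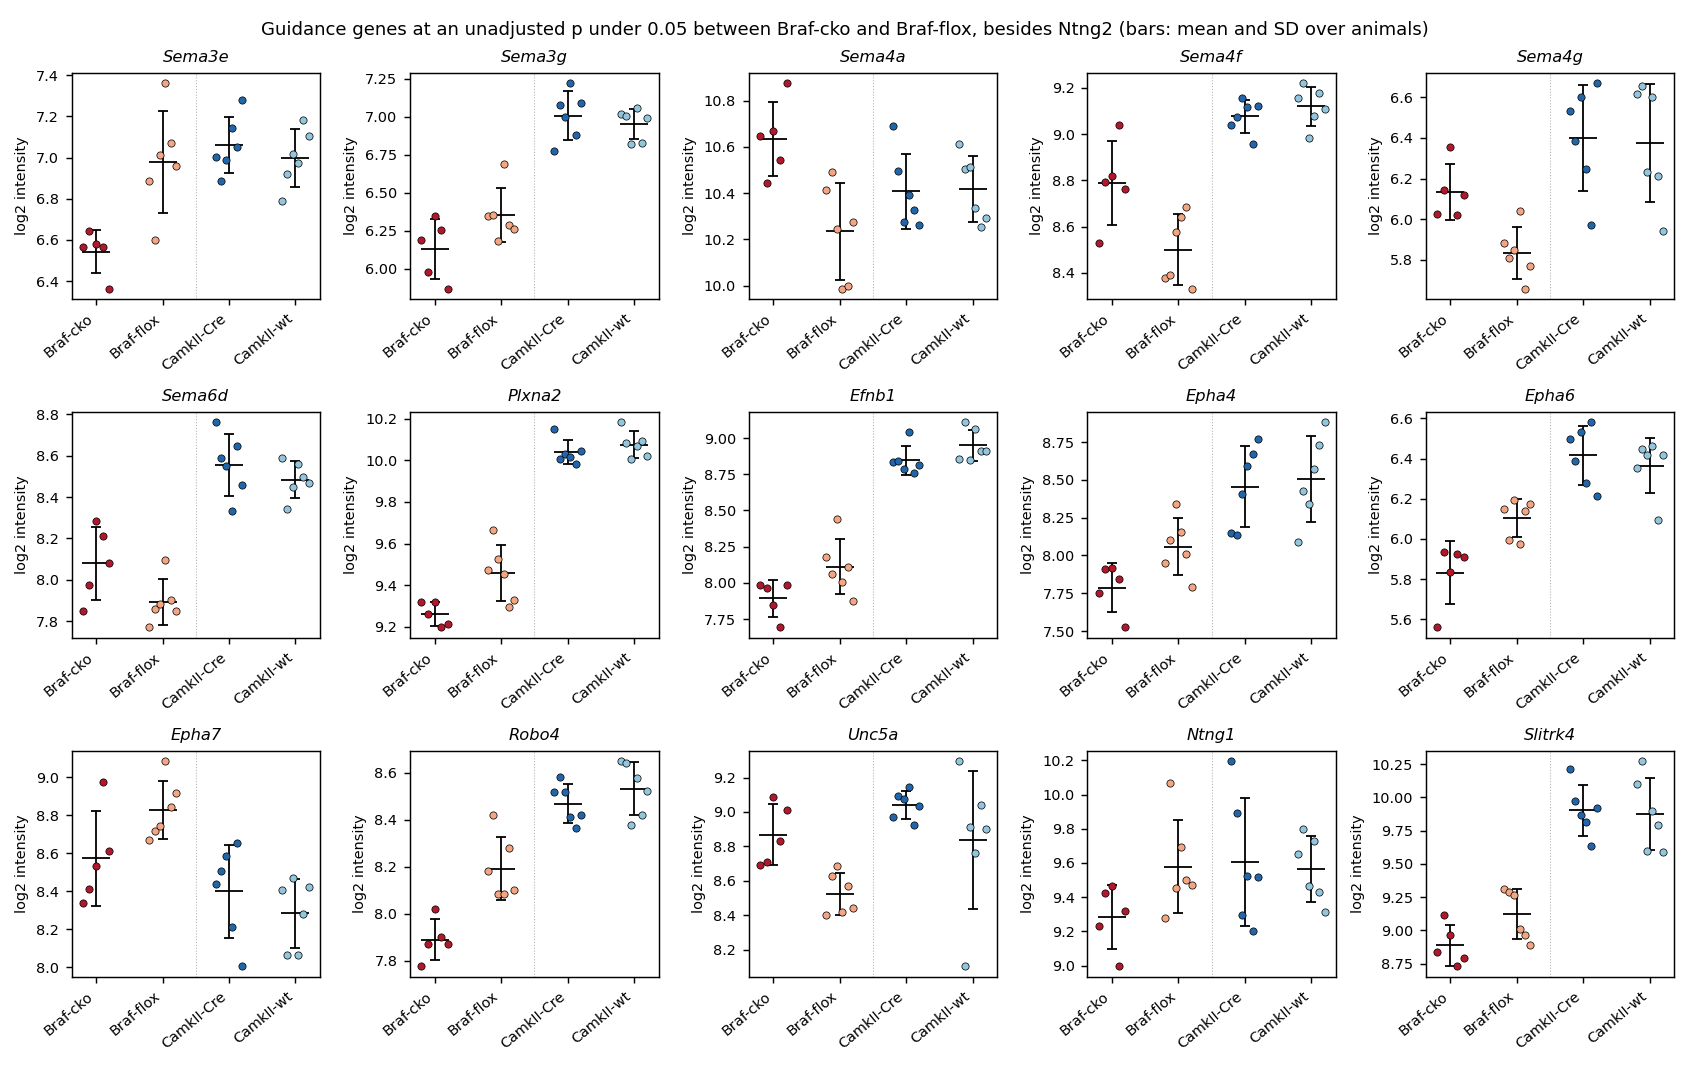
Log2 normalized intensity (y axes) in each animal of the 4 groups (x axes) for the 15 genes besides Ntng2 with an unadjusted p under 0.05 between Braf-cko and Braf-flox mice. Bars are the mean and SD over animals, and the dotted lines part the 2 experiments, whose levels are not comparable. The Braf-cko and Braf-flox points are separate for Epha6, Robo4 and Unc5a and overlap for the others.

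All 3 Slits were tested, with changes of 0.18 for Slit1, −0.10 for Slit2 and 0.02 for Slit3. Slit1 read 7.56, 7.88, 7.89, 7.99 and 7.64 in Braf-cko mice, against 7.41 to 7.76 with a median of 7.63 in Braf-flox mice (SE 0.09, unadjusted p = 0.0742, limma adjusted p = 0.528). All 3 Robo genes, the Slit receptors, were below 0 at their brightest probes, also under the other scalings. The changes were −0.22 for Robo1, −0.19 for Robo2 and −0.30 for Robo4. The tested probes had mixed signs, from −0.22 to 0.01 for Robo1 and from −0.23 to 0.06 for Robo2. Robo4, the Robo of endothelial cells, read 7.78, 7.87, 8.02, 7.90 and 7.87 in Braf-cko mice, against 8.08 to 8.42 with a median of 8.14 in Braf-flox mice.

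The Robo4 groups did not overlap (SE 0.08, unadjusted p = 0.00139, limma adjusted p = 0.122). The Cre change was −0.06, and the difference was −0.24 (unadjusted p = 0.0186, limma adjusted p = 0.599). Its other tested probes gave −0.03 and 0.02, so the separation rests on 1 of 3 probes assigned to the same transcript. The endothelial and mural marker level given with Sema3g moved the same way, and its part in the Robo4 value was not tested.

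The netrins Ntn1, Ntn3, Ntn4 and Ntn5 had changes between −0.08 and 0.09 in the Braf comparison, and the smallest unadjusted p was 0.318, for Ntn1 (5.87 to 6.12 in Braf-cko mice, against 5.73 to 6.11 in Braf-flox mice). These Ntn1 levels are low as well, near those of the Braf probe. Of the netrin receptors, Dcc, which mediates attraction, was at −0.18 (95% confidence interval −0.38 to 0.03). Unc5a, a receptor that mediates repulsion, read 8.69, 8.71, 9.09, 8.83 and 9.01 in Braf-cko mice, against 8.40 to 8.69 with a median of 8.51 in Braf-flox mice. The groups were separate by less than 0.01, with a change of 0.34 (SE 0.09, unadjusted p = 0.00155, limma adjusted p = 0.128).

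Unc5a also had a positive value in the Cre experiment. CamkII-Cre mice read 8.92 to 9.15 with a median of 9.06, and CamkII-wt mice 8.10 to 9.29 with a median of 8.91, a change of 0.20 (SE 0.14) with overlapping groups. The difference between the Braf and the Cre change was 0.14 (95% confidence interval −0.23 to 0.51). Unc5b and Unc5c were at −0.09 and −0.02 in the Braf comparison, and Unc5d was below the filter.

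Ntng1, the second netrin-G, whose partner is Lrrc4c, read 9.23, 9.42, 9.46, 8.996 and 9.32 in Braf-cko mice, against 9.28 to 10.07 with a median of 9.49 in Braf-flox mice. Its sign was opposite to that of Ntng2, with a change of −0.29 (SE 0.13, unadjusted p = 0.0349, limma adjusted p = 0.418). The groups overlapped, and the 4 tested Ntng1 probes lay between −0.29 and 0.09. In the Cre experiment the change was 0.04.

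Of the genes that share only the name, 3 of 5 Slitrk genes were tested. Slitrk4, a postsynaptic partner of receptor phosphatases, read 8.84, 9.12, 8.96, 8.73 and 8.79 in Braf-cko mice, against 8.89 to 9.31 with a median of 9.14 in Braf-flox mice. The groups overlapped in 2 Braf-cko mice (change −0.23, SE 0.10, limma adjusted p = 0.404). Slitrk1 and Slitrk2 were at 0.00 and −0.06, and the sign of Slitrk1 turned under median centring.

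**Figure D4:**
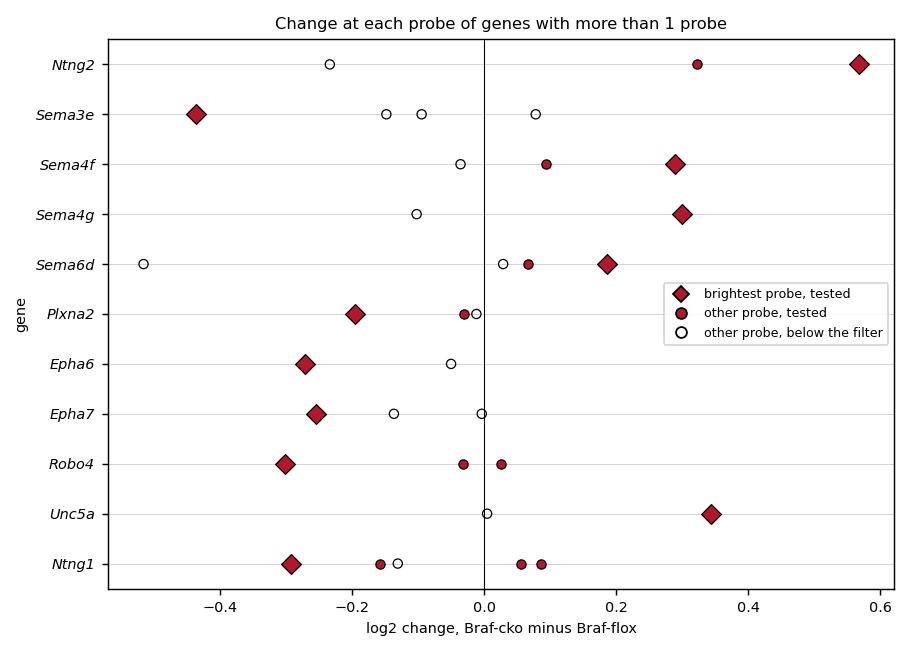
Log2 change, Braf-cko minus Braf-flox (x axis), at each probe of the genes with several probes and an unadjusted p under 0.05 at the brightest probe (y axis). Diamonds are the brightest probes, filled circles other tested probes and open circles probes below the filter. For Ntng2 the probes span −0.23 to 0.57 and for Robo4 −0.30 to 0.02.

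The probes of a gene often differed. Of the 24 guidance genes with at least 2 tested probes, all tested probes had the same sign of change in 13 and mixed signs in 11. The brightest probe of Unc5a was at 0.34 and its other probe, below the filter, at 0.00, and the brightest probe of Epha6 at −0.27 and the other at −0.05.

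In the Cre experiment 62 of the 73 genes were tested and none passed the adjusted threshold, where 2 of 23316 probes (0.00858%) did. At an unadjusted p under 0.05 stood 2 genes (3.23%), against 1.76% of the brightest probes of named genes, and no gene had separate groups, against 0.0854%. Ntn5, a netrin, was lower by this measure, with 6.27 to 6.74 and a median of 6.53 in CamkII-Cre mice, against 6.49 to 6.90 and a median of 6.80 in CamkII-wt mice (change −0.24, SE 0.08, limma adjusted p = 1.00). Sema7a, a lipid-anchored semaphorin that binds plexin C1 and integrins, was the other (change −0.14, SE 0.06). Changes ran from −0.24 for Ntn5 to 0.25 for Plxnd1.

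In the model of all 23 animals, 61 guidance genes were tested for a difference between the Braf and the Cre change. None passed the adjusted threshold, where 0.184% of all probes did. At an unadjusted p under 0.05 stood 8 (13.1%), against 6.94% of the brightest probes of named genes. Ntng2, Sema4a and Sema4f had the more positive Braf change (3.21% of those probes did), and Sema3e, Sema3g, Epha6, Epha7 and Robo4 the more negative one (3.74%).

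The median SD over animals was 0.17 for the 58 tested genes in the Braf experiment, beside 0.14 over all probes tested, and 0.14 beside 0.12 in the Cre experiment. Each Cre animal is an average of repeated arrays and most Braf animals are single arrays, so the experiments' SDs cannot be set against each other. The widest spread, named after it was seen, was that of Sema3f, a secreted semaphorin of the hippocampal mossy fibre system, with 5.81 to 7.73 in Braf-cko mice and 5.97 to 7.47 in Braf-flox mice. Between the arrays of an animal in the Cre experiment, once each array set was centred, the median SD of the guidance genes was 0.11, and it was below the SD over animals for 36 of 62. That SD is of single arrays, while the SD over animals is of averaged arrays, so the measures are not alike. The array sets themselves were apart by as much as 1.24 (Epha5), a shift shared by the groups because every animal had an array in both sets. Braf-cko mouse 1, the one animal of its experiment with repeated arrays, gave a median difference of 0.10 between them over the 58 genes, and at most 0.47 (Efnb2).

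Other genes of the guidance pathway were read as well. Of 50 cytoplasmic mediators (CRMPs, guanine exchange factors, kinases and actin regulators), 39 were tested, and 1 was higher, none lower and 38 not past the adjusted threshold in Braf-cko mice, where 0.159% of all probes were higher and 0.373% lower. The one was Pak4, a kinase activated by Cdc42, with a change of 0.40 (SE 0.07, limma adjusted p = 0.0113) and −0.04 in the Cre experiment (difference 0.44, limma adjusted p = 0.0898). With the animal number as a block the Pak4 change was 0.39 and did not pass (limma adjusted p = 0.117), and with animals 1 to 3 and 4 to 6 as blocks the difference passed (limma adjusted p = 0.0325). Of 30 co-receptors and surface partners, 24 were tested and none passed. The median change was −0.01 over the mediators and −0.02 over the partners, beside 0.00 over all probes, and no gene of either list passed in the Cre comparison or for the difference.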

How the data were processed

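Total RNA of whole hippocampi was hybridised to Illumina MouseWG-6 v1.1 arrays. Per the study's methods the R packages were vsn, beadarray and limma (versions, steps and settings are not given in the sources used here). The authors deposited 1 intensity per probe and array on a linear scale, normalized between arrays. A second deposited table of 72 signal and detection columns carries no sample names and was not used. After log2 transformation the 36 arrays were averaged to 23 animals. The brighter 50% of probes by mean over the animals compared were tested with limma 3.58.1 (statmod 1.5.0, R 4.3.3; lmFit and eBayes, two-sided, genotype only) with Benjamini-Hochberg adjustment over all of them and a threshold of 0.05. Each experiment was fitted alone, and the difference of the changes in a model of all animals. That model weighted all animals alike, although those of the Cre experiment had repeated arrays and most of the Braf experiment did not. The script was tested on simulated data. In the platform annotation 29976 probes carry 1 symbol, 10 carry several and 16646 carry none, and all 73 genes matched RefSeq by identifier. Full values are given for the Ntng2 probes, for genes past the adjusted threshold or at an unadjusted p under 0.05 in the Braf comparison or the difference, and for the gene with the smallest p of each family. Pathway genes are named where they passed. Marker levels are log2 of summed intensities. The genes, lists and rules were chosen with earlier results of these data known. Alternatives were other filters, scalings, blocks, tests and probe rules, the first array of each animal, leaving out each animal and, chosen after seeing the data, leaving out the 5 mice with a summed choroid plexus marker level above 12. The study names Student's test for its statistics in general, not for the arrays, and it was run here as an alternative. The small number of animals per group limits the precision of every change.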

Additional observations from a re-analysis of the deposited data

Results flagged for a closer look

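A single animal stood apart from its group in 7 of 84 groups checked, over the 21 guidance genes with full values, and chance gives about 1 group in 20. Braf-cko mouse 1 was low for Epha6 (5.56, with the next at 5.84), and Braf-cko mouse 5 was low for Sema3e (6.36, with the next at 6.56). Braf-flox mouse 4 was high for Sema3g (6.69, with the next at 6.35). In the Cre experiment, CamkII-Cre mouse 4 was high for Efnb1 (9.04, with the next at 8.84) and CamkII-Cre mouse 1 low for Slit1 (7.79, with the next at 8.34). CamkII-wt mouse 5 was low for Epha6 (6.09, with the next at 6.35) and CamkII-wt mouse 1 low for Nrp2 (6.77, with the highest of its group at 7.14). The Ntng2 probe gave no such animal in any of the 4 groups.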

How the results depend on the processing

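The Ntng2 change between Braf-cko and Braf-flox mice kept its direction under 12 alternatives (0.44 to 0.58) and passed under 10 of them. It did not pass in the unmoderated test (each probe on its own variance) (adjusted p = 0.0729, leaving 0 guidance genes) or as the mean of its tested probes (0.44, adjusted p = 0.382). With each animal left out in turn it passed in 11 of 11 runs (0.48 to 0.61, adjusted p 0.0105 to 0.0295). The run without Braf-flox mouse 6 is the same as the alternative without the mice high in choroid plexus markers, so these are not separate checks. The count of guidance genes called was 1 to 2 with an animal left out in the Braf comparison and 0 to 1 for the difference, where Sema3e joined without Braf-flox mouse 2. The replicate block, which leaves Braf-flox mouse 6 without a partner, left 0 cytoplasmic mediators called (Pak4 0.39, adjusted p = 0.117), the blocks of animals 1 to 3 and 4 to 6 gave 1 for the difference (Pak4, adjusted p = 0.0325), and the partners gave 0 to 1 with an animal left out (Chl1 without Braf-flox mouse 3, adjusted p = 0.0400). The Ntng2 change in the Cre experiment, −0.01, was 0.00233 under quantile normalization and −0.0803 to 0.0639 with an animal left out. Its sign was positive without CamkII-Cre mouse 1 (0.0437), 2 (0.00552) or 6 (0.00373) or CamkII-wt mouse 1 (0.0437), 2 (0.0639) or 3 (0.0265). The 240 other counts of calls were equal to those reported, and the 767 other values of named genes kept their direction and side of the threshold.

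Over all probes, the 124 calls of the Braf comparison became 58 with the replicate block, 19 by the unmoderated test, and 72, 69 and 76 without Braf-cko mouse 1, 4 or 5 and 81 without Braf-flox mouse 5. The 16 guidance genes at an unadjusted p under 0.05 in the Braf comparison were 10 by the unmoderated test and 12 to 18 otherwise. The 2 calls of the Cre comparison ranged from 1 to 6 and the 43 of the difference from 31 to 61, except with the 5 mice high in choroid plexus markers left out, where they were 0 and 4. Without those mice, 0 guidance genes stood at an unadjusted p under 0.05 in the Cre comparison and 5 for the difference. Animals with the same number correlated at −0.14 to 0.13 (Braf) and −0.24 to 0.59 (Cre) and share only a number, and 3 of 11 correlated best with their own. With the replicate block the Ntng2 change passed (adjusted p = 0.0362). The filter on mean intensity stands in for a detection call.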
